A study of Mus musculus with 44 samples.

Results

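*Klf2*, *Klf4* and *Klf5* encode Krüppel-like factors, and the open chromatin at their 3 loci was followed through early mouse development in embryos with and without Oct4 or Sox2. The loci were taken as fixed windows of mm10: 45 kb around *Klf2* on chromosome 8, 90 kb around *Klf4* on chromosome 4, reaching far downstream of the gene, and 90 kb around *Klf5* on chromosome 14. Every peak in these windows was kept, which gave 70 of the 152393 peaks of the study, 15 at *Klf2*, 22 at *Klf4* and 33 at *Klf5*. No measured level or difference entered this rule, although the loci were chosen with earlier results of these data known. A peak is named by its gene and by the distance of its centre from the gene's first start site, in kb along the direction of transcription, so that *Klf4* +54.8 kb lies 54.8 kb downstream.

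Open chromatin was measured by ATAC-seq, in which the Tn5 transposase inserts adapters into accessible DNA. The 44 libraries fall into 12 groups by mouse line, genotype and stage. In the *Pou5f1* line (Oct4 in the labels, after the protein that *Pou5f1* encodes), libraries were made from KO and Ctrl morulae at E2.75 and late morulae at E3.25, with 3 libraries per group, and from early ICM at E3.75 and late ICM at E4.5, with 4 libraries per group. In the *Sox2* line, KO and Ctrl early and late ICM were profiled, with 4 libraries per group. Each library is a pool of 20 to 40 embryos or ICMs, so n counts pools, and p-values measure the spread between pools.

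KO embryos carried a paternal null allele marked by a fluorescent reporter (mKO2 at *Pou5f1*, EGFP at *Sox2*, both under a PGK promoter) and a maternal floxed allele deleted by *Zp3-Cre*, which acts in the oocyte. By design they lack maternal and zygotic gene product. Ctrl embryos of the same crosses shared the maternal deletion and kept 1 intact paternal copy, and are not wild type. The strain field of the labels gives B6C3F1 for every library. ICMs of both genotypes were cultured with 1 µM of the MEK inhibitor PD0325901 from E2.5 and isolated by immunosurgery, whereas morulae were neither treated nor dissected, so stage, culture, inhibitor and isolation cannot be told apart between morula and ICM.

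Krüppel-like factors bind GC-rich and CACCC-type DNA through zinc fingers in their C-terminal part. In mouse embryonic stem cells Klf2, Klf4 and Klf5 overlap in function and help to maintain naive pluripotency, with *Klf4* activated by LIF through Stat3. Klf5 also acts in the first lineage decisions of the preimplantation embryo. Oct4 and Sox2 bind DNA side by side on a composite OCT-SOX motif, and the ICM gives rise to epiblast and primitive endoderm.

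The sequences of 8 peaks are shown because the results below turn on them. Each is the whole peak on the plus strand of GRCm38, 5′ to 3′, with matches to the OCT-SOX motif and to the KLF word in capitals. All 8 are intergenic. *Klf2* +15.0 kb (chr8:72333925-72334124) and +15.4 kb (chr8:72334361-72334560) are neighbours downstream of *Klf2*, and the second holds an OCT-SOX match. *Klf4* +54.8 kb (chr4:55477519-55477718) holds an OCT-SOX and a KLF match. *Klf4* +56.8 kb (chr4:55475602-55475801) holds neither but has a STAT word at bases 21 to 29 and a TEAD word at bases 91 to 96. *Klf5* +41.2 kb (chr14:99339834-99340033), +54.5 kb (chr14:99353138-99353337) and +55.5 kb (chr14:99354128-99354327) hold an OCT-SOX match, and *Klf5* +57.0 kb (chr14:99355574-99355773) a KLF match.
Klf2 +15.0 kb: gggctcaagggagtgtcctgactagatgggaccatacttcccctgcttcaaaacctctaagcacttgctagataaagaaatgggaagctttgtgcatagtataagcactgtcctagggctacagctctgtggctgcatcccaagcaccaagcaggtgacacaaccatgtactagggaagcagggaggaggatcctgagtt
Klf2 +15.4 kb: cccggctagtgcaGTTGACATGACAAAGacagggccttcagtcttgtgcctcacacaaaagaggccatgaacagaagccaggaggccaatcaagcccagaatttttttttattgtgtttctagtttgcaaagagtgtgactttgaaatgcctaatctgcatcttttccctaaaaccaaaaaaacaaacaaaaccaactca
Klf4 +54.8 kb: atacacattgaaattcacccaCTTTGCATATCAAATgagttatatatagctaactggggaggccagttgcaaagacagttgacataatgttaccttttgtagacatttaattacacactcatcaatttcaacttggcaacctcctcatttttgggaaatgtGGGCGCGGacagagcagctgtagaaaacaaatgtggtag
Klf4 +56.8 kb: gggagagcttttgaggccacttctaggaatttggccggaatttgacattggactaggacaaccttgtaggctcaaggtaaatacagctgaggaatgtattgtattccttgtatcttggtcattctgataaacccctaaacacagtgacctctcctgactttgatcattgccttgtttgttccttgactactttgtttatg
Klf5 +41.2 kb: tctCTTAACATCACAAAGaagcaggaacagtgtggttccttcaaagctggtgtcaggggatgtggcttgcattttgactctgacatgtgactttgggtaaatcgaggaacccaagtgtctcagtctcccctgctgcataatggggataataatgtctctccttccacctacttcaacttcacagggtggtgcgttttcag
Klf5 +54.5 kb: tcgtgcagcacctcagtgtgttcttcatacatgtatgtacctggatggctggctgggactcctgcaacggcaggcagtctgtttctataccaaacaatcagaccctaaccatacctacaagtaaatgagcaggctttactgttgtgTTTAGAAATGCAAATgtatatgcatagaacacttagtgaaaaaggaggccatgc
Klf5 +55.5 kb: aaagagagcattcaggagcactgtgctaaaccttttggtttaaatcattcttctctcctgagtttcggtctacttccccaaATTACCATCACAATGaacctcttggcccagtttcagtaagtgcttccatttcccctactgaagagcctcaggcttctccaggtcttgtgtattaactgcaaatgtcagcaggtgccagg
Klf5 +57.0 kb: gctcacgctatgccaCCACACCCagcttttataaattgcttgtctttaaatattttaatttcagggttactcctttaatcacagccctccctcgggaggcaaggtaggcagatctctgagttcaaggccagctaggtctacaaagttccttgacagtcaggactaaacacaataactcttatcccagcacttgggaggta

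Values are rlog, a log2 scale of Tn5 insertions per 200 bp peak on which the authors placed all libraries together. A difference of 1 is a factor of 2 in insertions, and differences at weak peaks are understated. Insertion counts per library were not used here, so the depth is unknown. The median rlog over all peaks ranged from 2.35 to 2.63 between libraries, and each library correlated with the mean of the rest of its group at r = 0.828 to 0.931 over all peaks. The targeted genes were looked at first. At a peak 0.5 kb before the *Sox2* start site, between the loxP sites, *Sox2*-KO libraries lay between 0.54 and 1.19 in early ICM and between 0.49 and 1.05 in late ICM, below every Ctrl library of the line (1.96 to 2.74 and 2.35 to 3.28). At a second peak between the loxP sites, in the *Sox2* coding exon, signal remained in KO and the groups overlapped (1.71 to 2.77 in KO and 1.95 to 3.81 in Ctrl early ICM, 1.14 to 2.91 and 2.42 to 3.50 in late ICM). The peak at the *Pou5f1* start site lies outside the deleted exons and checks nothing (4.22 to 5.30 in KO and 4.09 to 5.15 in Ctrl late ICM). A peak in a coding exon within the floxed part of *Pou5f1* was not lower in KO late ICM either (2.17 to 3.45 in KO and 2.04 to 3.00 in Ctrl) and overlapped in early ICM (1.11 to 3.03 and 1.42 to 3.01). The study describes the POU domain exons as removed and stained KO embryos for both proteins. Neither can be read from these libraries, so the *Pou5f1* genotypes rest on the labels here.

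Markers of the ICM lineages were read at their start sites as a description of the tissue. Over 7 peaks of 5 epiblast genes, the mean rlog of a library was 4.42 to 4.81 in *Pou5f1* Ctrl late ICM and 3.00 to 3.19 in KO, and 4.23 to 4.33 in *Sox2* Ctrl late ICM and 3.20 to 3.81 in KO. Of these peaks 2 are the *Sox2* peaks just described, inside the floxed part. Over the other 5 peaks, *Sox2* Ctrl late ICM gave 4.65 to 4.96 and KO 3.96 to 4.54, with 1 of 5 called lower (4.88% of all peaks were, median difference -0.28), and *Pou5f1* Ctrl gave 4.76 to 5.0 and KO 2.97 to 3.39, with all 5 called lower (10.1% of all peaks, median -1.66). Trophectoderm genes (13 peaks of 6 genes) gave 3.09 to 3.55 in *Pou5f1* Ctrl and 3.11 to 3.62 in KO, whereas in the *Sox2* line Ctrl gave 2.86 to 3.30 and KO 3.55 to 3.78, without overlap. For primitive endoderm (10 peaks of 5 genes) the ranges were 2.86 to 3.47 and 2.57 to 3.14 in the *Pou5f1* line and 3.08 to 3.50 and 2.81 to 3.50 in the *Sox2* line. No marker list was near 0 in any group. In these bulk pools, fewer cells of a type and less open chromatin per cell cannot be told apart. In early ICM the 5 epiblast peaks gave 4.76 to 4.79 in *Pou5f1* Ctrl and 3.22 to 4.10 in KO, with 3 of 5 called lower (5.43% of all peaks, median -1.21), and overlapped in the *Sox2* line (3.98 to 4.67 in Ctrl and 3.70 to 4.82 in KO, none called, where 1.91% of all peaks were lower). The trophectoderm and primitive endoderm lists overlapped between KO and Ctrl early ICM in both lines. Thus the epiblast list separated KO from Ctrl in early ICM of the *Pou5f1* line and in late ICM of both lines, and the trophectoderm list in late ICM of the *Sox2* line, and their part in the results below was not tested.

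The start sites of all 3 genes were open in every group. The *Klf2* start-site peak, in the first coding exon and UTR of a gene that spans chr8:72319033-72321656, averaged 6.44 over all libraries and the *Klf5* start-site peak, in the UTR of a gene at chr14:99298691-99315036, 6.58, at percentiles 99.63 and 99.75 of all peaks. The *Klf4* start site (gene at chr4:55527143-55532466, minus strand) averaged 4.41, at percentile 89.82. At *Klf2* and *Klf5* the start-site chromatin was already highly accessible in morulae and late morulae, with group means of 5.97 to 6.39 for *Klf2* and 6.0 to 6.72 for *Klf5*. Over all 12 groups the means were 5.97 to 6.81 and 6.0 to 6.91, and in this ordering every neighbouring pair of groups overlapped.

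Loss of either factor left these 3 peaks without a call in all 6 KO comparisons. In late ICM the *Klf2* start site read 6.88, 6.35, 6.51 and 6.29 in *Pou5f1* Ctrl replicates 1 to 4 and 6.37, 6.63, 6.38 and 6.42 in KO, a difference of -0.06 with a 95% interval of -0.45 to 0.34. The difference in *Sox2*-KO was -0.08 (-0.48 to 0.32). At the *Klf5* start site the differences were 0.13 (-0.27 to 0.53) and 0.22 (-0.19 to 0.62). These intervals bound any change at the *Klf2* and *Klf5* start sites to well under 1 on the log2 scale.

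The *Klf4* start site is given by library because KO and Ctrl did not overlap there in late ICM of the *Pou5f1* line. *Pou5f1* Ctrl late ICM gave 5.09, 5.23, 5.44 and 5.36 and KO gave 4.66, 4.82, 4.86 and 4.61, with every KO library below every Ctrl library. The difference of -0.54 ± 0.31 (SE, adjusted p = 0.237) did not pass the test over all peaks, and its interval was -1.16 to 0.08. *Pou5f1* Ctrl late ICM was the highest of the 12 groups (5.28) and did not overlap the next, while the other 11 groups, from 4.74 down to 3.59 in Ctrl morula, each overlapped their neighbour. For *Sox2*-KO late ICM the difference was 0.27 (-0.35 to 0.89).

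**Figure D1:**
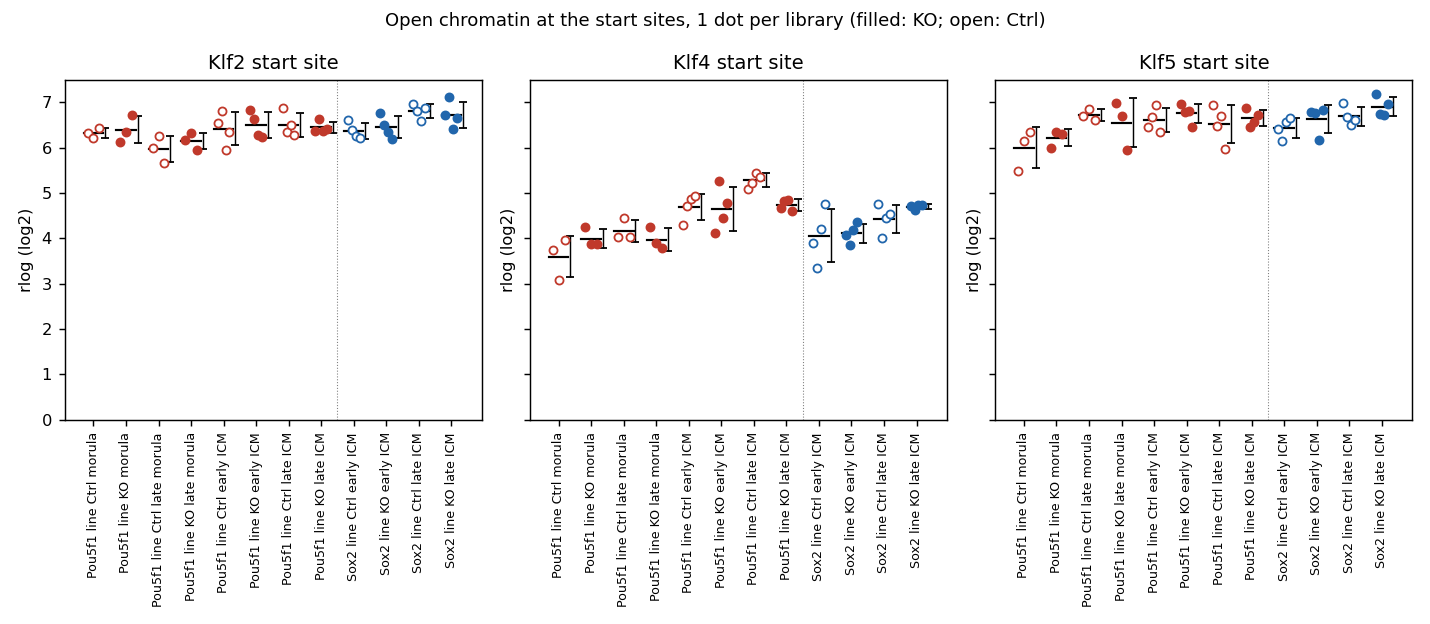
Values of rlog (log2, vertical axis) at the start-site peaks of *Klf2*, *Klf4* and *Klf5* in the 12 groups (horizontal axis), 1 dot per library, filled for KO and open for Ctrl, red for the *Pou5f1* line and blue for the *Sox2* line, with the group mean as a bar and 1 SD as the whisker. The *Klf2* and *Klf5* start sites lie near 6 to 7 in all groups, and the *Klf4* start site is highest in *Pou5f1* Ctrl late ICM.

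Most of the distal peaks opened between the late morula and the early ICM. In *Pou5f1* Ctrl embryos 39 of the 70 peaks were higher in early ICM (55.7%, against 14.7% of all peaks) and 1 was lower (15.0% of all peaks). The median difference of the 70 was 1.07, against -0.0434 over all peaks. At *Klf2* 12 of 15 peaks rose, at *Klf4* 12 of 22 and at *Klf5* 15 of 33. The largest rise was at *Klf4* +56.8 kb, by 3.40 ± 0.46 (SE, adjusted p = 7.84e-09), from 0.80, 1.70 and 1.37 in the 3 late morula libraries to 4.51, 4.71, 4.66 and 4.88 in the 4 early ICM libraries. *Klf4* +61.1 kb, the most open peak of its locus, rose by 2.36 ± 0.35 (SE, adjusted p = 9.93e-08), and *Klf5* +22.2 kb by 2.67 ± 0.54 (SE, adjusted p = 6.46e-05). Only *Klf5* +49.6 kb fell, with a difference of -0.91 ± 0.31 (SE, adjusted p = 0.0183). This call was lost without any 1 of late morula replicates 2 and 3 and early ICM replicates 2 and 4. The 3 start sites were not called at this step, with differences of 0.45 (adjusted p = 0.104) at *Klf2*, 0.53 (adjusted p = 0.231) at *Klf4* and -0.12 (adjusted p = 0.719) at *Klf5*.

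Between morula and late morula 6 of the 70 peaks fell (2.79% of all peaks did) and 2 rose (3.65%). Those that fell were *Klf2* -10.1 kb, *Klf4* +61.1, +7.3 and +6.7 kb, and *Klf5* -24.8 and +58.3 kb, by 1.13 to 1.97 in size. The *Klf5* start site rose by 0.73 ± 0.24 (SE, adjusted p = 0.0428) and *Klf5* +49.6 kb by 1.42 ± 0.33 (SE, adjusted p = 0.00313). The start-site call was lost without any 1 of morula replicates 1 and 2 and late morula replicates 1, 2 and 3 (adjusted p up to 0.328), and with only the libraries compared, quantile normalization, median centring or a constant prior variance (up to 0.218). The decrease at *Klf4* +6.7 kb was lost in 5 of 6 fits without 1 library, all but that without morula replicate 1 (up to 0.213), and the decrease at *Klf5* +58.3 kb without morula replicate 2 and late morula replicate 1 in turn (up to 0.0938). Of the 6 that fell, *Klf2* -10.1 kb, *Klf4* +61.1, +7.3 and +6.7 kb and *Klf5* -24.8 kb rose at the next step and were thus lower in the late morula than before and after it. From early to late ICM no peak of the loci was called in Ctrl embryos of the *Pou5f1* line (0.180% and 0.0787% of all peaks were called lower and higher, and 3 and 1 of the 70 had an unadjusted p under 0.05) or of the *Sox2* line (0.121% and 0.474%, with 3 and 4 of the 70).

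**Figure D2:**
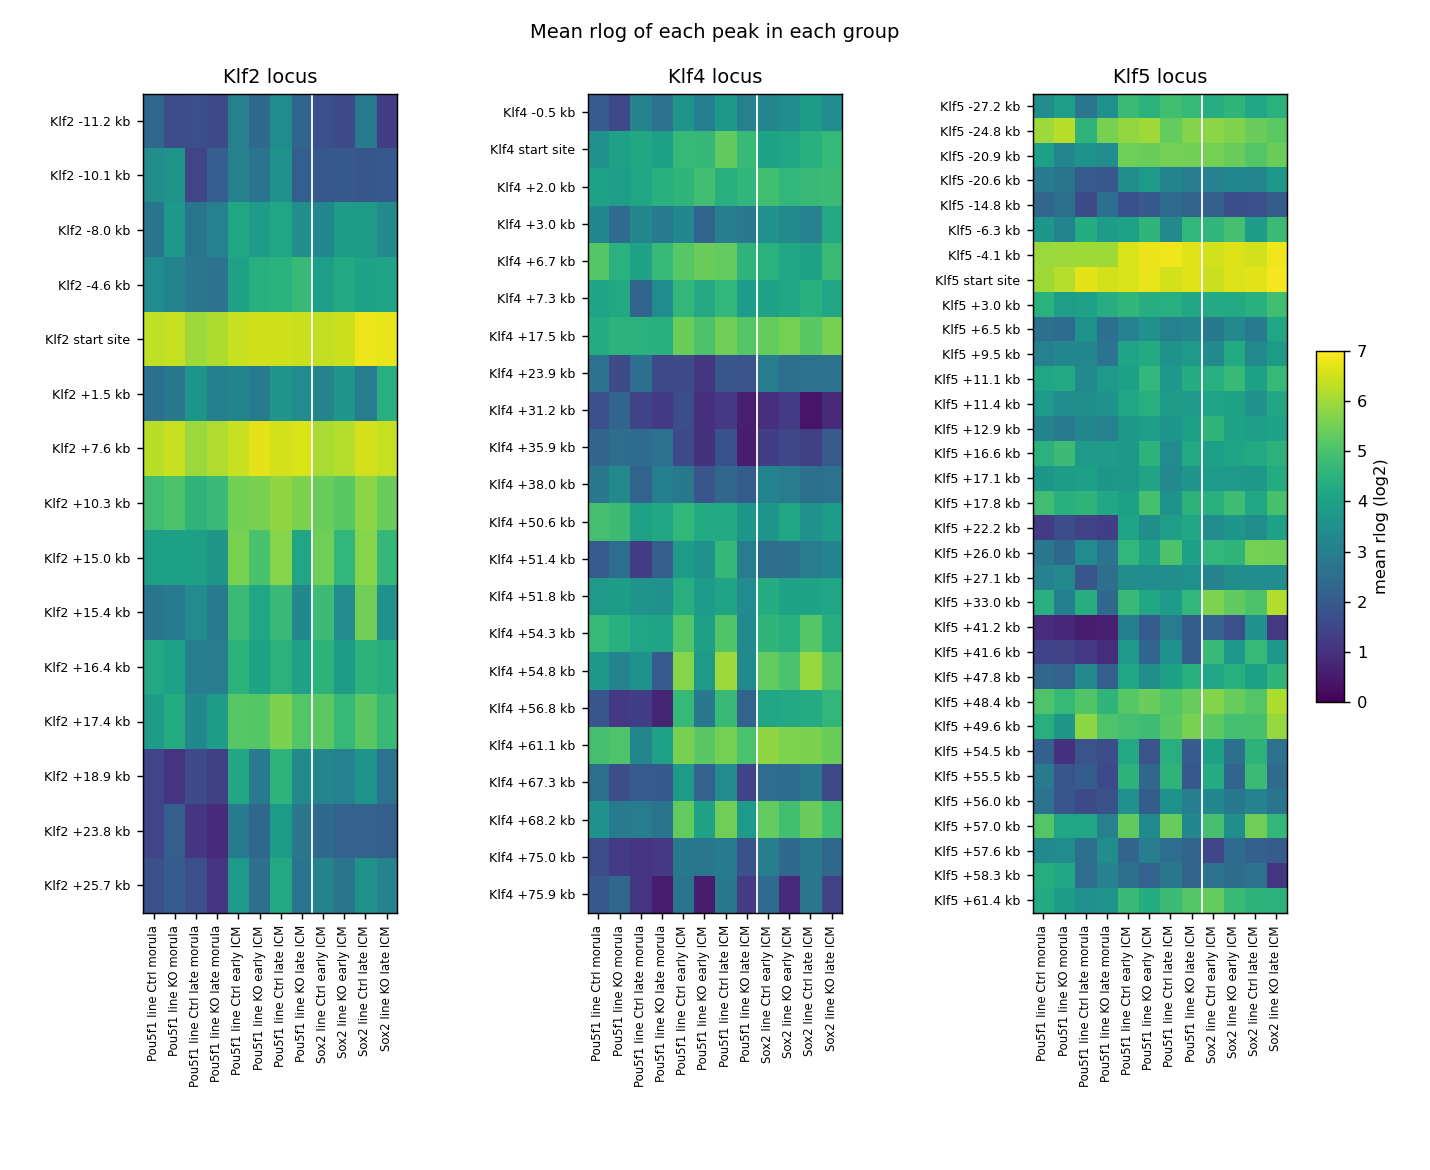
Mean rlog (colour scale, log2, 0 to 7) of each of the 70 peaks (rows, ordered along each locus) in the 12 groups (columns), with the *Pou5f1* line left and the *Sox2* line right of the white line. Most distal rows are darker in the morula columns than in the ICM columns, while the *Klf2* start site, *Klf2* +7.6 kb, the *Klf5* start site and *Klf5* -4.1 kb stay near the top of the scale throughout.

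Loss of Oct4 then lowered distal peaks at all 3 loci. In *Pou5f1*-KO late ICM 16 of the 70 peaks were lower than in Ctrl (22.9%, against 10.1% of all peaks) and 2 were higher (8.19% of all peaks). The lower peaks were 4 of 15 at *Klf2*, 7 of 22 at *Klf4* and 5 of 33 at *Klf5*, and both higher peaks were at *Klf5*. Without any 1 of Ctrl replicates 1 and 2 and KO replicates 1 and 4, 1 was higher. The median difference was -0.63 at *Klf2*, -0.74 at *Klf4* and 0.03 at *Klf5*, against -0.0374 over all peaks. In early ICM 11 peaks were lower (5.43% of all peaks), 6 at *Klf4*, 5 at *Klf5* and none at *Klf2*, and none was higher (2.8% of all peaks were). At *Klf2*, 2 peaks had an unadjusted p under 0.05 in that comparison. With the replicate number as a block, which pairs libraries in early ICM, 13 peaks were lower and 1 was higher, and those gained included *Klf2* +25.7 kb (adjusted p = 0.0312) and, higher, *Klf5* +17.8 kb (adjusted p = 0.0172).

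The morulae showed few differences. In *Pou5f1*-KO morulae no peak was called (0.185% and 0.0518% of all peaks were called lower and higher), and 6 of the 70 were lower at an unadjusted p under 0.05, all of them at *Klf5*. In late morulae 2 peaks were lower (0.539% of all peaks), *Klf4* +54.8 kb and *Klf5* +33.0 kb, and none was higher (0.108%). Without Ctrl replicate 2, KO replicate 1 or KO replicate 3, 1 was lower, and without Ctrl replicate 3 or KO replicate 2 none was. With the replicate number as a block, which pairs libraries in late morulae too, 2 were lower and 1 was higher. No peak of the loci was called for a change of the KO effect from one stage to the next. The shares of all peaks called lower and higher in those contrasts were 0% and 0% for late morula against morula, 0.291% and 0.0551% for early ICM against late morula, and 0% and 0% for late against early ICM. For the *Sox2*-KO effect in late against early ICM they were 0.0164% and 0.00262%. At an unadjusted p under 0.05, 12 of the 70 peaks had a more negative *Pou5f1*-KO effect in early ICM than in late morula and 3 a more positive one. The share of all peaks at that threshold is not given, and these counts are a description.

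Loss of Sox2 was compared with its own Ctrl in the same way. In *Sox2*-KO late ICM 8 of the 70 peaks were lower (11.4%, against 4.88% of all peaks), 3 at *Klf2*, 1 at *Klf4* and 4 at *Klf5*, and 4 were higher (2.71% of all peaks), 1 at *Klf2* and 3 at *Klf5*. The lower peaks numbered 4 without KO replicate 1 and 5 without Ctrl replicate 3, and the higher peaks 1 without Ctrl replicate 1, 2 without KO replicate 2 and 0 without KO replicate 3. After quantile normalization 2 were higher. The median differences were -0.34, 0.05 and 0.31 at *Klf2*, *Klf4* and *Klf5*, against 0.0144 over all peaks. In early ICM 4 peaks were lower (1.91% of all peaks), 1 at *Klf2*, 1 at *Klf4* and 2 at *Klf5*, and none was higher (0.238%). Only 2 were lower without KO replicate 3, and likewise without Ctrl replicate 4. Over the 6 KO comparisons, 26 of the 70 peaks were called at least once (37.1%, against 24.5% of all peaks), 6 at *Klf2*, 7 at *Klf4* and 13 at *Klf5*, and 44 were called in none.

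**Figure D3:**
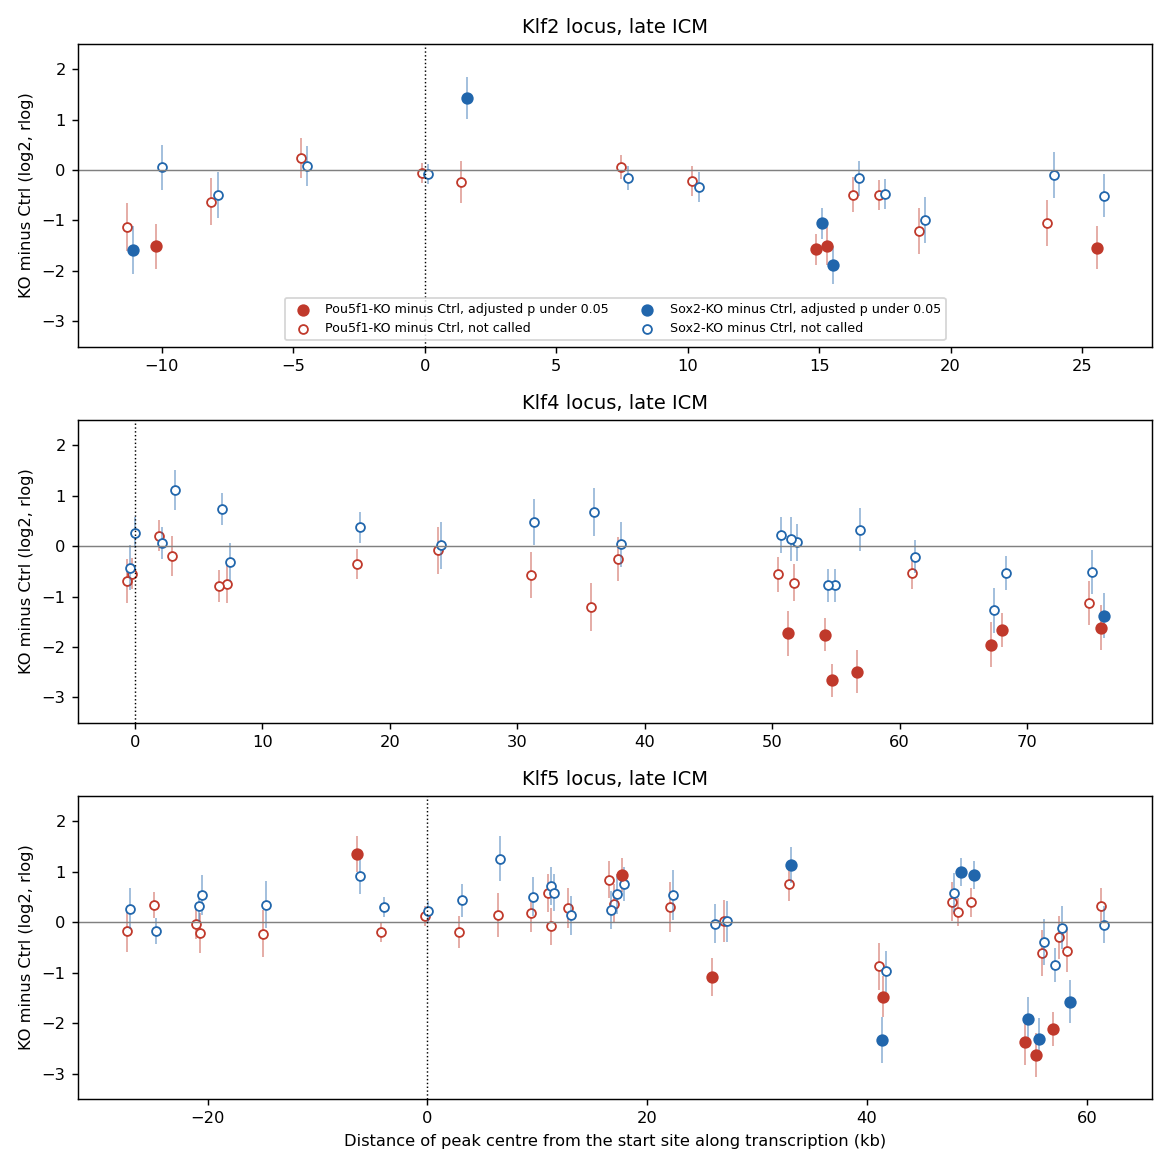
Difference KO minus Ctrl in late ICM (vertical axis, difference of rlog values, log2) at each peak against the distance of its centre from the start site (horizontal axis, kb), 1 panel per locus, red for *Pou5f1*-KO and blue for *Sox2*-KO, filled where called, with 1 SE as bars and a dotted line at the start site. The called decreases lie away from the start sites, near +15 kb at *Klf2*, between +51.4 and +75.9 kb at *Klf4*, and between +26.0 and +58.3 kb at *Klf5*, with others at -11.2, -10.1 and +25.7 kb of *Klf2*.

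At *Klf2*, the peaks at +15.0 and +15.4 kb were lower in late ICM without either factor. *Klf2* +15.4 kb, which overlaps the *Klf2* enhancer listed by the study, read 5.45, 4.0, 5.05 and 4.52 in *Pou5f1* Ctrl and 3.88, 3.24, 3.38 and 2.52 in KO late ICM. In the *Sox2* line it read 5.54, 5.66, 5.38 and 5.33 in Ctrl and 2.88, 3.29, 4.03 and 4.21 in KO. In both lines the lowest Ctrl library lay above the highest KO library. The difference was -1.50 ± 0.38 (SE, adjusted p = 0.00192) in *Pou5f1*-KO and -1.88 ± 0.38 (SE, adjusted p = 0.000156) in *Sox2*-KO.

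In early ICM *Klf2* +15.4 kb differed by -1.42 ± 0.38 (SE, adjusted p = 0.019) in *Sox2*-KO, where Ctrl read 4.47, 5.52, 4.05 and 5.12 and KO 3.36, 4.38, 2.12 and 3.63. The groups overlapped, and the call was lost without any 1 of Ctrl replicates 2 and 4 and KO replicate 3 (adjusted p up to 0.257), and when only these 8 libraries were fitted (adjusted p = 0.0689). In *Pou5f1*-KO early ICM the difference was -0.58 (adjusted p = 0.405), with an interval of -1.33 to 0.16. In *Pou5f1* Ctrl embryos this peak rose from 3.36 ± 0.31 (SD, n = 3) in late morula to 4.78 ± 0.34 (n = 4) in early ICM, and the *Pou5f1*-KO late ICM mean of 3.26 ± 0.56 was near the late morula level.

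*Klf2* +15.0 kb read 6.04, 5.58, 5.52 and 5.76 in *Pou5f1* Ctrl and 4.13, 4.17, 4.09 and 4.21 in KO late ICM, without overlap, a difference of -1.57 ± 0.31 (SE, adjusted p = 5.32e-05). In the *Sox2* line Ctrl read 5.88, 5.75, 5.58 and 5.70 and KO 3.66, 4.54, 4.99 and 5.51. The highest KO library thus lay only just below the lowest Ctrl library. The difference of -1.05 ± 0.31 (SE, adjusted p = 0.0181) was not called without any 1 of Ctrl replicate 1 and KO replicates 1 and 2 (adjusted p up to 0.21). The next peak outward, *Klf2* +16.4 kb, differed by -0.49 (adjusted p = 0.375) and -0.17 (adjusted p = 0.877).

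The other *Klf2* peaks called were called once each. In *Pou5f1*-KO late ICM *Klf2* -10.1 kb was lower, with a difference of -1.51 ± 0.45 (SE, adjusted p = 0.00967), with Ctrl at 3.23 to 3.79 and KO at 1.08 to 3.05, a call lost without KO replicate 1 (adjusted p = 0.078). This peak also differed between the Ctrl embryos of the lines, at 1.21 to 2.76 in the *Sox2* line, and no *Sox2*-KO effect was called there (0.05). *Klf2* +25.7 kb, in an intron of the neighbouring gene *Eps15l1*, was also lower (-1.54 ± 0.43, adjusted p = 0.00514), and its call held without any 1 library. Loss of Sox2 lowered *Klf2* -11.2 kb in late ICM, with a difference of -1.59 ± 0.48 (SE, adjusted p = 0.0202), and raised *Klf2* +1.5 kb, in the gene's intron, by 1.43 ± 0.41 (SE, adjusted p = 0.0158). The first call was lost without Ctrl replicates 2 and 3 and KO replicate 1 in turn (adjusted p up to 0.0791) and the second without Ctrl replicates 1 and 3 and KO replicates 2 and 3 in turn (up to 0.0743). The 9 peaks of the locus called in no KO comparison included *Klf2* +7.6 kb, which averaged 6.38, near the level of the start site, and differed by 0.06 (-0.41 to 0.53) and -0.15 (-0.62 to 0.31) in late ICM.

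At *Klf4* the decreases lay far downstream, and 7 of the 22 peaks of the locus were lower in *Pou5f1*-KO late ICM, as counted above beside all peaks. They span a stretch from +51.4 to +75.9 kb, whose ends are the outermost called peaks. *Klf4* +54.8 kb overlaps the enhancer that the study calls Klf4-B. In late ICM it read 6.08, 5.62, 5.94 and 6.25 in *Pou5f1* Ctrl and 2.60, 3.74, 3.26 and 3.65 in KO. In early ICM Ctrl read 5.52, 5.66, 5.47 and 6.27 and KO 3.89, 4.19, 2.85 and 4.26. Each KO library lay below each Ctrl library at both stages, and the difference was -1.94 ± 0.33 (SE, adjusted p = 7.06e-06) in early and -2.66 ± 0.33 (SE, adjusted p = 3.36e-10) in late ICM, the largest in size of the 70 peaks in late ICM.

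*Klf4* +54.8 kb was also the only *Klf4* peak called in a KO comparison before the ICM. Late morulae read 2.95, 3.78 and 3.97 in Ctrl and 2.14, 2.24 and 1.69 in KO, without overlap, and differed by -1.54 ± 0.38 (SE, adjusted p = 0.024). This call was lost without any 1 of Ctrl replicates 2 and 3 and KO replicates 1, 2 and 3 (adjusted p up to 0.215), when only these 6 libraries were fitted (adjusted p = 0.0604) and with a constant prior variance (adjusted p = 0.0669). In morulae the groups overlapped, with 2.82, 4.54 and 3.88 in Ctrl and 3.96, 3.07 and 2.34 in KO, and the difference was -0.62 (adjusted p = 0.731).

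Without Sox2 the same peak stayed closer to its Ctrl level. Late ICM read 5.90, 5.65, 6.15 and 6.0 in *Sox2* Ctrl and 5.24, 5.14, 5.09 and 5.14 in KO. The KO libraries lay below the Ctrl libraries here too, but the difference of -0.78 ± 0.33 (SE, adjusted p = 0.153) was not called, with an interval of -1.43 to -0.12. It was called when only these 8 libraries were fitted (adjusted p = 0.0116). In early ICM the groups overlapped and the difference was -0.30 (-0.96 to 0.35).

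*Klf4* +56.8 kb had the largest difference between the 2 knockout effects. It read 4.88, 4.79, 4.43 and 4.77 in *Pou5f1* Ctrl and 1.87, 2.27, 1.11 and 3.66 in KO late ICM, without overlap, a difference of -2.49 ± 0.42 (SE, adjusted p = 2.83e-06). In early ICM Ctrl read 4.51, 4.71, 4.66 and 4.88, KO read 1.33, 3.43, 2.45 and 4.06, and the difference was -1.87 ± 0.42 (SE, adjusted p = 0.00102). The KO libraries were scattered over more than 2 log2 units at both stages, whereas the Ctrl libraries lay within 0.50 of each other, and all KO libraries were lower.

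In the *Sox2* line *Klf4* +56.8 kb read 3.43, 4.56, 4.82 and 4.43 in Ctrl and 4.83, 4.64, 4.73 and 4.34 in KO late ICM. These groups overlapped, and the difference was 0.33 with an interval of -0.51 to 1.17. In early ICM it was 0.11 (-0.73 to 0.95). This is the peak that had opened most between late morula and early ICM, and in *Pou5f1*-KO late ICM it averaged 2.23 ± 1.07 (SD, n = 4), between the Ctrl late morula mean of 1.29 ± 0.46 (n = 3) and the Ctrl late ICM mean of 4.72 ± 0.20 (n = 4).

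A test of 1 knockout effect against the other was also run. In late ICM 2 of the 70 peaks had a more negative effect of *Pou5f1* loss than of *Sox2* loss (0.554% of all peaks) and none a more positive one (0.351%). They were *Klf4* +56.8 kb, where the effects differed by -2.82 ± 0.60 (SE, adjusted p = 0.00512), and *Klf4* +54.8 kb, where they differed by -1.88 ± 0.47 (SE, adjusted p = 0.0216). The first call held without any 1 library, and the second was lost without any 1 of *Pou5f1* line KO replicate 1, *Pou5f1* line Ctrl replicate 4 and *Sox2* line Ctrl replicate 2 (adjusted p up to 0.0784) and with a constant prior variance (adjusted p = 0.0564). In early ICM no peak was called (0.372% and 0.308% of all peaks were), with -1.98 (adjusted p = 0.092) and -1.63 (adjusted p = 0.069) at these peaks. With the replicate block both were called (adjusted p = 0.0324 and 0.0229, in that order). Without it 4 of the 70, all at *Klf4*, had an unadjusted p under 0.05. Of the 22 *Klf4* peaks 21 had a more negative *Pou5f1*-KO than *Sox2*-KO effect in late ICM, against 9 of 15 at *Klf2* and 24 of 33 at *Klf5*. Neighbouring peaks share their libraries and the share of all peaks with that sign was not counted, so these counts are a description.

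**Figure D4:**
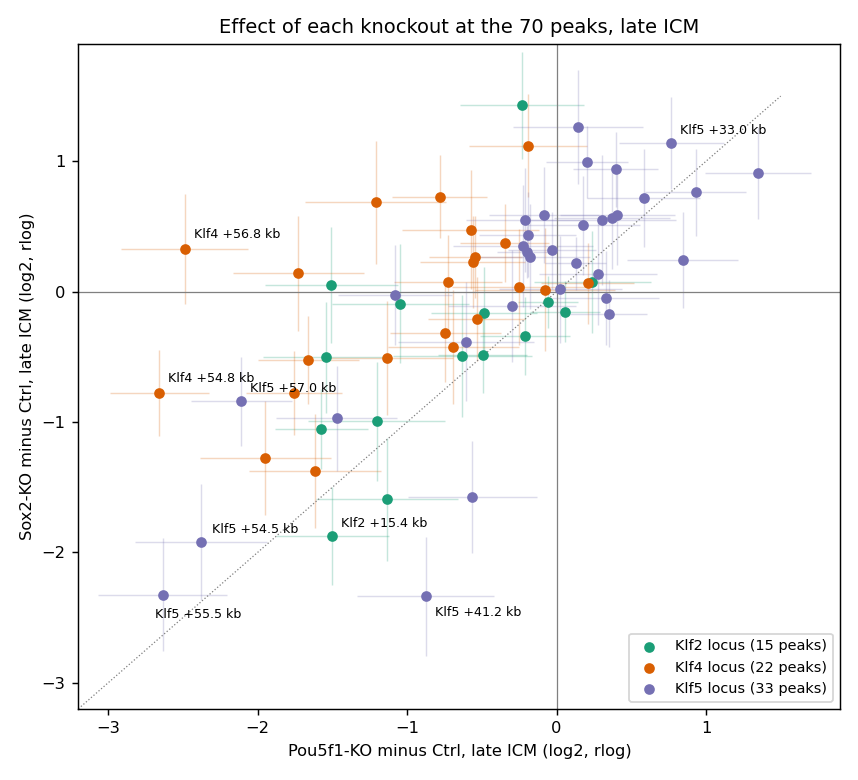
Difference KO minus Ctrl in late ICM at each of the 70 peaks, *Sox2*-KO (vertical axis, log2) against *Pou5f1*-KO (horizontal axis, log2), coloured by locus, with 1 SE as bars and a dotted line where both are equal. The *Klf4* peaks at +54.8 and +56.8 kb lie at -2.66 and -2.49 on the horizontal axis and at -0.78 and 0.33 on the vertical axis, while *Klf5* +54.5 and +55.5 kb are low on both.

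Further downstream, *Klf4* +67.3, +68.2 and +75.9 kb lie in an intron of the lincRNA gene *Gm12510*. *Klf4* +68.2 kb read 5.22, 5.54, 5.41 and 5.76 in *Pou5f1* Ctrl and 3.82, 3.42, 3.81 and 4.24 in KO late ICM, and differed by -1.66 ± 0.34 (SE, adjusted p = 8.94e-05). In early ICM it differed by -1.27 ± 0.34 (SE, adjusted p = 0.00665), but by -0.76 without KO replicate 1, when it was not called (adjusted p = 0.176). *Klf4* +67.3 kb was lower as well, with differences of -1.62 ± 0.44 (SE, adjusted p = 0.00823) in early and -1.95 ± 0.44 (SE, adjusted p = 0.000459) in late ICM, the early call being lost without KO replicate 1 (adjusted p = 0.0931). These peaks differed in *Sox2*-KO late ICM by -0.53 (adjusted p = 0.428) and -1.28 (adjusted p = 0.0556). The second was called with a constant prior variance (adjusted p = 0.0488) and with the replicate block (adjusted p = 0.0309).

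*Klf4* +75.9 kb was the only *Klf4* peak called in *Sox2*-KO embryos in the fit of all libraries. It was weak, with a mean of 1.74 over all libraries, at percentile 27.59 of all peaks. In late ICM *Pou5f1* Ctrl read 1.51, 3.16, 3.34 and 3.36 and KO 1.72, 1.60, 0.23 and 1.36, and *Sox2* Ctrl read 2.67, 3.38, 2.83 and 2.20 and KO 0.63, 1.47, 1.89 and 1.58. The differences were -2.15 ± 0.44 (SE, adjusted p = 0.000234) and -1.62 ± 0.44 (SE, adjusted p = 0.00447) in *Pou5f1*-KO early and late ICM, and -1.61 ± 0.44 (SE, adjusted p = 0.0248) and -1.38 ± 0.44 (SE, adjusted p = 0.0347) in *Sox2*-KO. The early *Pou5f1*-KO call held without any 1 library. The late one was lost without KO replicate 3 (adjusted p = 0.0502). In *Sox2*-KO the early call was lost without any 1 of Ctrl replicates 3 and 4 and KO replicates 1, 3 and 4 (adjusted p up to 0.171) and when only these 8 libraries were fitted (adjusted p = 0.0935). The late one was lost without any 1 of Ctrl replicates 1, 2 and 3 and KO replicates 1, 2 and 4 (up to 0.164), as well as after quantile normalization (adjusted p = 0.0554).

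Next to the Klf4-B peak, *Klf4* +54.3 kb read 4.90, 5.24, 4.90 and 5.32 in *Pou5f1* Ctrl and 2.89, 3.65, 2.55 and 4.25 in KO late ICM. The difference was -1.18 ± 0.32 (SE, adjusted p = 0.00923) in early and -1.76 ± 0.32 (SE, adjusted p = 1.52e-05) in late ICM, and the early call was lost without Ctrl replicate 4 (adjusted p = 0.0625). At *Klf4* +51.4 kb the late ICM difference was -1.73 ± 0.44 (SE, adjusted p = 0.00215). Ctrl embryos of the *Sox2* line were lower there too, at 1.65 to 4.16 against 4.31 to 5.20 in the *Pou5f1* line. *Klf4* +61.1 kb, the most open peak of the stretch with a mean of 5.16, was not called in late ICM, with differences of -0.54 (adjusted p = 0.264) in *Pou5f1*-KO and -0.21 (adjusted p = 0.813) in *Sox2*-KO. In *Pou5f1* Ctrl it read 4.06, 5.90, 6.20 and 6.0 and in KO 4.18, 5.24, 5.39 and 5.21, with replicate 1 the lowest in both groups. Without Ctrl replicate 1 the difference was -1.03 and was called. The 15 *Klf4* peaks called in no KO comparison include all 11 between -0.5 and +38.0 kb, whose differences in *Pou5f1*-KO late ICM were -1.21 to 0.21.

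At *Klf5* several decreases lay in a cluster 54.5 to 58.3 kb downstream of the start site. *Klf5* +55.5 kb was lower in all 4 ICM comparisons. In late ICM it read 4.92, 4.21, 4.48 and 4.65 in *Pou5f1* Ctrl and 1.30, 1.69, 1.68 and 3.04 in KO, and 4.86, 4.26, 4.88 and 5.05 in *Sox2* Ctrl and 2.19, 2.47, 2.73 and 2.35 in KO. No KO library reached the Ctrl range of its line. The differences were -2.64 ± 0.43 (SE, adjusted p = 1.13e-06) in *Pou5f1*-KO and -2.32 ± 0.43 (SE, adjusted p = 3.38e-05) in *Sox2*-KO, and the effects differed by -0.31 (-1.52 to 0.90).

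In early ICM *Klf5* +55.5 kb read 5.09, 4.45, 3.99 and 4.62 in *Pou5f1* Ctrl and 2.14, 2.61, 2.41 and 2.09 in KO, a difference of -2.22 ± 0.43 (SE, adjusted p = 9.1e-05). The *Sox2* line read 4.45, 4.08, 3.80 and 4.87 in Ctrl and 3.52, 2.69, 1.63 and 1.33 in KO, a difference of -2.01 ± 0.43 (SE, adjusted p = 0.00129). Both pairs of groups were separate, and all 4 calls held without any 1 library. In morulae the libraries spread widely (4.07, 1.77 and 2.77 in Ctrl and 2.81, 1.42 and 1.20 in KO), and the difference was -1.06 (adjusted p = 0.55).

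*Klf5* +54.5 kb, 1.0 kb nearer to the gene, read 4.34, 4.52, 4.27 and 4.49 in *Pou5f1* Ctrl and 1.21, 2.8, 1.87 and 2.27 in KO late ICM. In *Sox2* Ctrl it read 4.62, 3.97, 5.16 and 4.33 and in KO 1.98, 3.63, 2.82 and 1.98. The differences were -2.38 ± 0.44 (SE, adjusted p = 1.95e-05) and -1.92 ± 0.44 (SE, adjusted p = 0.00134), and in *Pou5f1*-KO early ICM -2.44 ± 0.44 (SE, adjusted p = 2.49e-05). All 3 calls held without any 1 library. In early ICM of the *Pou5f1* line KO replicate 3 read 3.44, far above the other 3 KO libraries (1.13 to 1.41). In *Sox2*-KO early ICM every KO library lay below Ctrl, and the difference of -1.41 (adjusted p = 0.0724) was not called. It was called without KO replicate 1 and with the replicate block (adjusted p = 0.0357), although the numbers were not taken as pairs there.

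*Klf5* +57.0 kb was already open in Ctrl morulae, at 5.27, 5.23 and 4.87. Every *Pou5f1*-KO library lay below every Ctrl library in morulae and in late morulae. The differences there, -0.99 (adjusted p = 0.394) and -1.06 (adjusted p = 0.288), were not called. In late ICM the peak read 5.81, 4.46, 5.48 and 5.80 in *Pou5f1* Ctrl and 3.11, 3.42, 3.44 and 3.14 in KO, and in the *Sox2* line 5.32, 5.70, 5.56 and 5.31 and 3.93, 5.34, 5.07 and 4.18. The *Pou5f1*-KO groups were separate, and in the *Sox2* line 1 KO library lay within the Ctrl range. The differences were -1.97 ± 0.34 (SE, adjusted p = 8.67e-06) and -2.11 ± 0.34 (SE, adjusted p = 7.27e-07) in *Pou5f1*-KO early and late ICM and -1.44 ± 0.34 (SE, adjusted p = 0.00459) in *Sox2*-KO early ICM, and these calls held without any 1 library. In *Sox2*-KO late ICM the difference of -0.84 (adjusted p = 0.122) was not called (interval -1.51 to -0.17), but was when only these 8 libraries were fitted (adjusted p = 0.028). Within the cluster *Klf5* +56.0 kb was lower in *Pou5f1*-KO early ICM (-1.49 ± 0.46, adjusted p = 0.0248), and *Klf5* +58.3 kb in *Sox2*-KO late ICM (-1.58 ± 0.43, adjusted p = 0.00933). The first was lost without any 1 of Ctrl replicates 2 and 3 and KO replicates 1 and 4 (adjusted p up to 0.151) and the second without any 1 of Ctrl replicate 3 and KO replicate 1 (up to 0.0646).

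The pair of peaks at +41.2 and +41.6 kb of *Klf5* was weak in morulae, with Ctrl morula means of 0.89 ± 0.54 and 1.42 ± 0.21 (SD, n = 3). *Klf5* +41.2 kb read 2.46, 3.96, 4.13 and 3.61 in *Sox2* Ctrl and 1.54, 0.85, 1.19 and 1.23 in KO late ICM, and differed by -2.34 ± 0.46 (SE, adjusted p = 9.95e-05). In *Pou5f1*-KO late ICM it differed by -0.88 (adjusted p = 0.186), and the 2 effects were not shown to differ (difference 1.46, adjusted p = 0.312, 95% interval 0.18 to 2.8). Its neighbour at +41.6 kb had differences of -1.49 ± 0.40 (SE, adjusted p = 0.00848) and -1.47 ± 0.40 (SE, adjusted p = 0.00462) in *Pou5f1*-KO early and late ICM, the early call being lost without KO replicate 4 (adjusted p = 0.0544). Without Sox2 it differed in late ICM by -0.97 (adjusted p = 0.138), and was called when only these 8 libraries were fitted (adjusted p = 0.0373).

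*Klf5* +33.0 kb was called lower in one comparison and higher in another. In morulae it read 3.77, 4.78 and 4.77 in *Pou5f1* Ctrl and 2.41, 3.54 and 3.13 in KO, with every KO library below Ctrl, and the difference of -1.41 (adjusted p = 0.12) was not called. In late morulae it read 3.83, 4.25 and 4.98 in *Pou5f1* Ctrl and 3.17, 1.70 and 2.27 in KO, a difference of -1.97 ± 0.41 (SE, adjusted p = 0.003). This call was lost without Ctrl replicate 3 and KO replicate 2 in turn (adjusted p up to 0.0941). In late ICM the difference in *Pou5f1*-KO was 0.77 (adjusted p = 0.121), and in the *Sox2* line Ctrl read 5.12, 5.63, 5.05 and 4.39 and KO 6.44, 5.97, 6.65 and 5.70, higher by 1.14 ± 0.35 (SE, adjusted p = 0.0272). The increase was not called without any 1 of Ctrl replicates 1, 3 and 4 and KO replicates 1 and 3 (adjusted p up to 0.149), nor after quantile normalization (0.0753) or with a constant prior variance (0.0789).

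**Figure D5:**
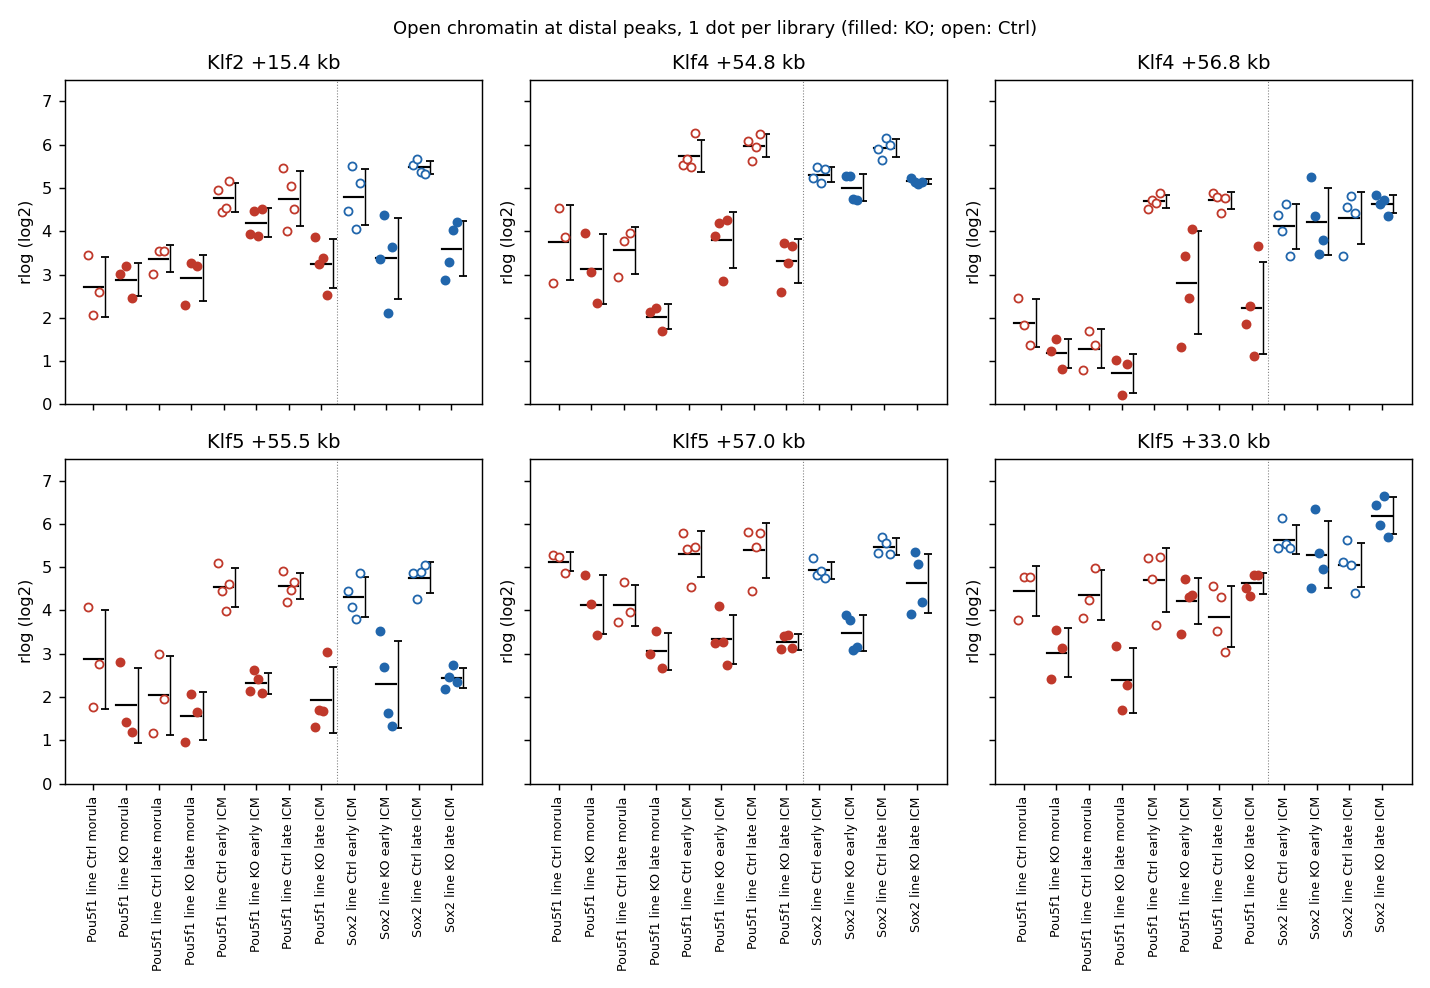
Values of rlog (log2, vertical axis) at 6 distal peaks in the 12 groups (horizontal axis), 1 dot per library, filled for KO and open for Ctrl, red for the *Pou5f1* line and blue for the *Sox2* line, with the group mean as a bar and 1 SD as the whisker. *Klf2* +15.4 kb and *Klf5* +55.5 kb are lower in late ICM of both knockouts, *Klf4* +54.8 and +56.8 kb are lower in *Pou5f1*-KO early and late ICM, and *Klf5* +33.0 kb is lower in *Pou5f1*-KO late morula and higher in *Sox2*-KO late ICM.

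Increases were called in ICM at 6 of the 70 peaks (8.57%, against 11.2% of all peaks), 5 of them at *Klf5*. In *Pou5f1*-KO late ICM *Klf5* -6.3 kb was higher by 1.35 ± 0.36 (SE, adjusted p = 0.0032), with Ctrl at 2.37 to 3.95 and KO at 4.36 to 5.03, and held without any 1 library. *Klf5* +17.8 kb was higher by 0.93 ± 0.34 (SE, adjusted p = 0.0389), a call lost without any 1 of Ctrl replicates 1 and 2 and KO replicates 1 and 4 (adjusted p up to 0.179) and with a constant prior variance (0.0655). In *Pou5f1*-KO early ICM its difference was 0.97 (adjusted p = 0.0543), and was called with the replicate block (adjusted p = 0.0172). Neither peak was called without Sox2 in late ICM, where *Klf5* +17.8 kb differed by 0.76 (adjusted p = 0.172), with KO above every Ctrl library, and *Klf5* -6.3 kb by 0.91 (adjusted p = 0.106), with overlap. With the replicate block *Klf5* -6.3 kb was called there (adjusted p = 0.046), although the numbers were not taken as pairs in that comparison. Loss of Sox2 raised *Klf5* +48.4 kb in late ICM by 0.99 ± 0.28 (SE, adjusted p = 0.0112) and *Klf5* +49.6 kb by 0.94 ± 0.29 (SE, adjusted p = 0.0234). These calls were lost without any 1 of Ctrl replicate 1 and KO replicate 3 (up to 0.107) and of Ctrl replicates 1 and 2 and KO replicates 2, 3 and 4 (up to 0.189), respectively, the second also after quantile normalization (0.0638) and with a constant prior variance (0.062). One further decrease, *Klf5* +26.0 kb in *Pou5f1*-KO late ICM (-1.08 ± 0.38, adjusted p = 0.0341), was lost without any 1 of Ctrl replicates 1 and 4 and KO replicates 1 and 2 (adjusted p up to 0.188), after quantile normalization (0.0531) and with a constant prior variance (0.0746). *Klf5* -4.1 kb, with a mean of 6.49 the most open peak of the locus after the start site, differed by -0.20 (-0.60 to 0.20) and 0.31 (-0.10 to 0.71) in late ICM.

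Across the loci, 5 peaks were lower in late ICM of both knockouts, *Klf2* +15.0 and +15.4 kb, *Klf4* +75.9 kb and *Klf5* +54.5 and +55.5 kb (7.14%, against 3.43% of all peaks), and no peak was called in opposite directions within a stage. Counting any of the 4 ICM comparisons, 20 peaks were lower at least once (28.6%, against 13.0% of all peaks) and 6 were higher. The Ctrl embryos of the 2 lines, each with 1 intact copy of a different gene, differed at 4 of the 70 peaks in late ICM. *Klf2* -10.1 and +23.8 kb and *Klf4* +6.7 and +51.4 kb were lower in *Sox2* Ctrl than in *Pou5f1* Ctrl (0.667% of all peaks were, and 0.763% were higher). In early ICM no peak was called between the lines (0.545% and 0.354% of all peaks were called lower and higher), and 9 and 4 of the 70 had an unadjusted p under 0.05.

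The 200 bp of each peak were searched on both strands for the OCT-SOX motif, at 14 positions with at most 3 mismatches. It was found in 8 of the 70 peaks (11.4%) and in 5.03% of all peaks of the same length. The 8 are *Klf2* +15.4 kb, *Klf4* +3.0 and +54.8 kb, and *Klf5* -20.9, -4.1, +41.2, +54.5 and +55.5 kb. Of these 8, 4 were lower in *Pou5f1*-KO late ICM, against 12 of the 62 without a match (19.4%), and over all peaks of the study 43.8% of those with a match and 8.33% of those without were. In *Sox2*-KO late ICM 4 of the 8 and 4 of the 62 (6.45%) were lower, against 30.8% and 3.51% over all peaks. These shares are a description, with no test. Counting any of the 4 ICM comparisons, 5 of the 8 were lower and none was higher, and of the 62 without a match 15 were lower and 6 higher. Of all peaks, with and without a match together, 13.0% were lower and 11.2% higher by that count. Those shares were not split by motif. *Klf4* +56.8 kb, which carried the largest difference between the knockouts, holds no match in its 200 bp, and *Klf4* +3.0 kb, *Klf5* -20.9 kb and *Klf5* -4.1 kb hold a match and were called in no KO comparison.

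Shorter words were searched without mismatches. The KLF word CCNCNCCC was found in 24 of the 70 peaks (34.3%, against 39.1% of all peaks), including the *Klf4* and *Klf5* start sites but not that of *Klf2*. The TEAD word CATTCC was found in 20 (28.6% against 18.9%), the SOX word ACAANGG in 6 (8.57% against 11.7%), the ESRRB word AAGGTCA in 6 (8.57% against 9.66%), the STAT word TTCNNNGAA in 5 (7.14% against 5.76%) and the OCT word ATGCNAAT in 2 (2.86% against 4.11%). One of the 2 OCT words, in *Klf5* +54.5 kb, overlaps the OCT-SOX match shown in its sequence. These matches are descriptions of the letters in each window.

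Peaks elsewhere in the genome followed the same group means. Over the 12 groups, among 76137 peaks at or above the median level, the peak most like *Klf2* +15.4 kb lay 0.1 kb from the start site of *Cabyr* (r = 0.973), followed by peaks nearest to *Pmp2* (r = 0.967) and *Ank2* (r = 0.962). For *Klf4* +54.8 kb they were a peak at the start site of *Nes* (r = 0.993), 1 near *Prrt3* (r = 0.989) and 1 near *Mok* (r = 0.989). For *Klf5* -4.1 kb, the most open *Klf5* peak away from a start site, the nearest genes were *Gm37997* (r = 0.985), *4933407K13Rik* (r = 0.984) and *Renbp* (r = 0.984). The groups share mouse lines and stages, and these correlations over 12 means are a description.

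The start sites of the other Krüppel-like genes were described for comparison. Of 14 genes, *Klf1* and *Klf14* had no peak within 1 kb of a start site, and the other 12 had 31. In *Pou5f1*-KO late ICM 2 of the 31 were lower, at *Klf9* (-0.70) and *Klf13* (-1.03), and 1 was higher, at *Klf3* (1.21). Of all peaks 10.1% were lower and 8.19% higher in that comparison. The *Klf3* peak was also the only one called in *Pou5f1*-KO early ICM (1.26; 5.43% of all peaks were lower and 2.8% higher), and none was called in *Sox2*-KO ICM (lower and higher were 1.91% and 0.238% of all peaks in early and 4.88% and 2.71% in late ICM). The median differences of the 31 peaks were -0.10, -0.10, 0.02 and -0.01 in *Pou5f1*-KO early and late ICM and *Sox2*-KO early and late ICM.

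The genes around the 3 factors in the naive network were described over 159 peaks within 10 kb of 11 genes. They comprised the LIF receptor subunits *Lifr* and *Il6st*, the kinase *Jak1*, its target *Stat3* and the feedback inhibitor *Socs3*, and the transcription factors *Nanog*, *Esrrb*, *Tfcp2l1*, *Tbx3*, *Prdm14* and *Zfp42*. In *Pou5f1*-KO late ICM 41 of the 159 were lower and 4 higher, with a median of -0.46 (10.1% and 8.19% of all peaks, median -0.0374), and in early ICM 21 and 3, with a median of -0.34 (5.43% and 2.8%, median -0.0211). In *Sox2*-KO late ICM 14 were lower and 7 higher, with a median of -0.25 (4.88% and 2.71% of all peaks, median 0.0144), and in early ICM 5 and none, with a median of -0.07 (1.91% and 0.238%, median 0.0498). From late morula to early ICM of *Pou5f1* Ctrl embryos 60 were higher and 7 lower (14.7% and 15.0% of all peaks).

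Most of the decreases in *Pou5f1*-KO late ICM lay at the LIF receptor genes and *Esrrb*, which also hold many of the peaks. At *Lifr* 10 of 19 peaks were lower in *Pou5f1*-KO and 6 in *Sox2*-KO late ICM, with differences down to -2.65 and -3.45. At *Il6st* 4 and 3 of 11 were lower, with differences down to -3.78 and -4.16. At *Esrrb* 15 of 36 were lower in *Pou5f1*-KO, and in *Sox2*-KO 2 were lower and 1 was higher. At *Nanog* 4 and 1 of 11 peaks were lower. At *Socs3* 3 and none of 7 were lower, at *Prdm14* 2 and 1 of 10, and at *Tfcp2l1* 3 and 1 of 19, with 1 higher in *Pou5f1*-KO. No decrease was called at *Jak1*, *Stat3*, *Tbx3* or *Zfp42* in late ICM of either knockout, and at *Stat3* 2 of 16 peaks were higher in each. At *Jak1* 1 of 16 peaks was higher in *Pou5f1*-KO and 3 in *Sox2*-KO late ICM, and at *Zfp42* 1 of 8 was higher in *Sox2*-KO.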

How the data were processed

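The data are 44 ATAC-seq libraries of mouse embryos. Per the study's methods, the authors trimmed reads with SeqPurge, aligned them to the mm10 build using Bowtie2, dropped duplicates with Picard and called peaks with MACS2. Summits present in 2 or more replicates became peaks of 200 bp, and Tn5 insertions in them were counted with BEDTools. The deposited values are log2 values, to which the authors brought the insertions by rlog in DESeq2. Insertion counts and depth per library are unknown here, no count model was fitted, and rlog shrinks weak peaks toward their mean. The deposited condition means were not used.

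All peaks overlapping the 3 windows were taken. Genes and start sites came from GENCODE vM21 on GRCm38, where the authors used vM23. Differences were tested with limma 3.58.1 in R 4.3.3 (lmFit, contrasts.fit, eBayes with a trend) on all 152393 peaks and 44 libraries with a mean per group, leaving 32 residual degrees of freedom and a median residual SD of 0.589. Tests are two-sided, adjusted p-values are Benjamini-Hochberg over the whole peak set, separately for each comparison. Called means an adjusted p under 0.05. Counts at an unadjusted p under 0.05 are printed without the share of all peaks and are descriptions. Tables were handled with Python 3.11.15 and pandas 2.3.3. The code of the calling was run on simulated data with independent noise and large planted differences, which does not show its power for smaller differences or paired libraries.

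Described singly were the start-site peaks (within 100 bp), the peaks at the study's *Klf2* and Klf4-B enhancers, every peak called in a KO comparison (in detail if called in both knockouts in late ICM or more than once) and the most open peak of each locus. Peaks outside this rule (*Klf2* +7.6 and +16.4 kb, *Klf5* +22.2 kb, *Klf5* -4.1 kb beside its likeness, and those named only in a Ctrl comparison or a motif count) were chosen after their values were seen. The members, gene lists and motifs were chosen with earlier results of these data known, and their counts and medians are descriptions.

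Replicate numbers are shared between KO and Ctrl. Deviations of same-numbered libraries from their group means correlated at -0.0248 to 0.293 over 22 pairs, and every pair exceeded 0.1 in 2 of 6 comparisons, *Pou5f1* late morula and early ICM, where the numbers were taken as pairs. Alternatives were only the libraries compared, a filter on peaks under the median rlog, quantile normalization, median centring, a constant prior variance, the replicate block, a minimum absolute log2 difference of 1, and each library left out in turn.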

Additional observations from a re-analysis of the deposited data

Results flagged for a closer look

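Libraries that stand apart from the other 3 of their group were looked for at the peaks described in detail, in 136 groups of 4, of which chance alone marks about 1 in 20. Dixon's test marked 7. At *Klf4* +75.9 kb *Pou5f1* Ctrl late ICM replicate 1 read 1.51, against 3.16 to 3.36 in the others. At *Klf4* +61.1 kb the same library read 4.06 (others 5.90 to 6.20), and *Pou5f1*-KO late ICM replicate 1 read 4.18 (others 5.21 to 5.39), so the KO and Ctrl libraries of that number were both low. At *Klf4* +68.2 kb *Sox2* Ctrl late ICM replicate 2 read 5.05 (others 5.51 to 5.52), a small gap in a very narrow group. At the *Klf5* start site *Sox2*-KO early ICM replicate 3 read 6.17 (others 6.77 to 6.83). At *Klf5* +33.0 kb *Sox2* Ctrl early ICM replicate 2 read 6.13 (others 5.43 to 5.53). At *Klf5* +54.5 kb *Pou5f1*-KO early ICM replicate 3 read 3.44 (others 1.13 to 1.41), and the call at this peak held without it.

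At 2 peaks the effects of the 2 knockouts in late ICM differed by the test of the difference itself. The *Pou5f1*-KO effect minus the *Sox2*-KO effect was -2.82 at *Klf4* +56.8 kb (adjusted p = 0.00512, limma) and -1.88 at *Klf4* +54.8 kb (adjusted p = 0.0216). All 4 *Pou5f1*-KO libraries were below all 4 Ctrl libraries at both peaks. The contrast crosses mouse lines, and line and knockout cannot be told apart in it beyond what each line's own Ctrl removes.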

How the results depend on the processing

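Counts of called peaks are over the 70 peaks, and the cause of each shift was not tested. With only the libraries compared, *Pou5f1*-KO late morula had 1 lower and 1 higher peak, *Sox2*-KO early ICM 2 lower, and late morula against morula 1 higher. With peaks at or above the median rlog, *Pou5f1*-KO early ICM had 1 higher and *Sox2*-KO late ICM 5 lower, with fewer peaks tested. Quantile normalization gave 1 higher in *Pou5f1*-KO late morula, 2 higher in *Sox2*-KO late ICM and 1 higher in late morula against morula. Median centring gave 1 higher in *Pou5f1*-KO early ICM and 1 higher in late morula against morula. A constant prior variance gave 1 lower in *Pou5f1*-KO late morula, 1 higher in *Pou5f1*-KO late ICM, 1 higher in late morula against morula and 1 peak for the difference of effects in late ICM. A minimum difference of 1 left 1 higher in *Pou5f1*-KO and 2 higher in *Sox2*-KO late ICM. With the replicate block, *Pou5f1*-KO morula had 1 lower peak, late morula 1 higher, early ICM 1 higher (13 lower), *Sox2*-KO late ICM 7 higher, and the difference of effects 2 in early ICM, *Klf4* +54.8 and +56.8 kb. Of the same-numbered pairs, 19 of 22 had their highest correlation with their own number.

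Without 1 library, the lower peaks ranged from 0 to 2 in *Pou5f1*-KO late morula, 8 to 13 in early and 15 to 20 in late ICM, 2 to 4 in *Sox2*-KO early and 4 to 8 in late ICM, and higher peaks from 0 to 1, 1 to 2 and 0 to 4 in *Pou5f1*-KO early, *Pou5f1*-KO late and *Sox2*-KO late ICM. Late morula against morula had 1 to 2 higher, early ICM against late morula 27 to 40 higher and 0 to 1 lower, and the differences of effects 0 to 1 in early and 1 to 2 in late ICM. No named peak's difference called in a KO comparison changed sign in any alternative run. Of single differences under the settings other than leaving out a library, 841 kept their side of the threshold, 14 gained a call and 13 lost one. Depth limits could not be given, since counts are not known here.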
